A study of Homo sapiens with 6 samples.

Results

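The clustered histone genes were taken as the protein-coding rows of the deposited count table whose older symbol begins HIST1H, HIST2H, HIST3H or HIST4H. Of 58735 rows in the table, 71 met this rule. By the type named in the symbol, 6 encode linker histone H1, 17 encode H2A, 18 encode H2B, 15 encode H3 and 15 encode H4. The digit after HIST names the cluster: 55 members belong to HIST1 on chromosome 6, 12 to HIST2, 3 to HIST3 and 1 to HIST4.

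RNA was measured in 6 libraries of A549, an established human lung adenocarcinoma line. The 3 Vector libraries carry the genotype and treatment label WT, and the 3 OE_GPX3 libraries carry the label OE for overexpression of GPX3, a secreted glutathione peroxidase that reduces peroxides. The construct, its promoter, whether a group is 1 clone and whether replicates were separate cultures are not stated in the labels. The p-values therefore cover the spread among these 6 libraries, which may be technical. Total counts ran from 15831693 to 18751815 per library. GPX3 was 33.8-fold higher in the OE_GPX3 libraries (log2 fold change 5.08, SE 0.13, edgeR adjusted p = 2e-27). All 9 markers listed for the A549 line were counted in every library, with a summed level of 36400 to 39000 CPM in Vector and 40100 to 49000 in OE_GPX3 (CPM, each count relative to the library's total, scaled between libraries by TMM). The summed level of 6 fibroblast markers was between 3.36 and 7.07 CPM in any library, and that of 3 endothelial markers was under 1 CPM.

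Core histones H2A, H2B, H3 and H4 form the protein spool that DNA is wound on, and H1 binds the DNA that enters and leaves it. The clustered genes supply most new histone protein during S phase, when DNA is copied. Their main transcripts have no poly(A) tail. They end just after a short hairpin, the histone stem-loop, which is bound by the protein SLBP. Some of these genes also give transcripts that run past the hairpin to an ordinary poly(A) signal, and such transcripts can be made outside S phase. The labels describe enrichment of small RNAs and do not name a selection for poly(A) tails.

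The hairpins are shown because they separate the kinds of gene model on which the counts rest. The histone stem-loop motif, 16 bases long with free bases in the stem and loop, was searched on the sense strand. A match was found in the GENCODE release 29 transcripts of 32 of the 71 members, and of 104 of 19851 other protein-coding genes (0.524%). The lines give the 9 members that had enough counts to be tested and hold a match. Capitals mark the 16 matched bases, with 4 bases before and 6 after.
HIST1H2AC: caaaGGCTCTTTTCAGAGCCccccta
HIST3H2A: taaaGGCTCTTTTCAGAGCCacctac
HIST2H2BE: caaaGGCTCTTTTCAGAGCCacccac
HIST1H2BN: caaaGGCTCTTTTCAGAGCCactcag
HIST1H2BD: caaaGGCTCTTTTAAGAGCCacgcat
HIST1H2BC: caaaGGCTCTTTTAAGAGCCacccag
HIST1H3E: caaaGGCTCTTCTCAGAGCCaaccac
HIST1H4I: aaaaGGCCCTTTTTAGGGCCcctaag
HIST1H4H: caaaGGCCCTTTTCAGGGCCgcccac
HIST1H2AC, HIST3H2A, HIST2H2BE and HIST1H2BN hold the same 16 bases, which stand in 17 of the 32 members with a match. HIST1H2BD and HIST1H2BC share another version, found in 5 members. The 8 members of type H4 with a match use 2 versions of their own, held by 5 and 3 members, while the version in HIST1H3E stands in no other member.

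By gene model, 23 members had a transcript that runs at least 100 bases past the hairpin. In 9 others every transcript with a match ended within that distance. A further 6 had no match, and 33 were annotated by their coding part alone. Transcripts without a match were not measured. HIST1H2BD, 1 of the 9, has 2 transcripts of at most 2 exons, spans chr6:26158146-26171349 and has a poly(A) signal in the last 40 bases of a transcript. The limit of 100 bases was set after the models had been seen; HIST1H2BC lies just inside it at 116 bases and HIST1H4B just outside it at 86. Enough counts for a test were reached by 8 of the 23, 1 of the 9, 2 of the 6 and 3 of the 33. Of the 33 members annotated by their coding part alone, 12 were listed at 0, against 1 of the 23 whose models run on. The median total over the 6 libraries was 39 counts for models that run past the hairpin and 2 for coding parts alone. A model without its end regions cannot collect reads from them, so these counts also depend on the annotation. HIST1H2BK and HIST1H1C, which are among the 3 most counted members, have such short models of 381 and 642 bases. HIST1H2AC has 3 transcripts and a listed gene length of 1668 bases. Its longest run past the hairpin is 1128 bases, and at least 1 transcript has the poly(A) signal AATAAA within its last 40 bases. Whether the same transcript holds both was not recorded.

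**Figure D1:**
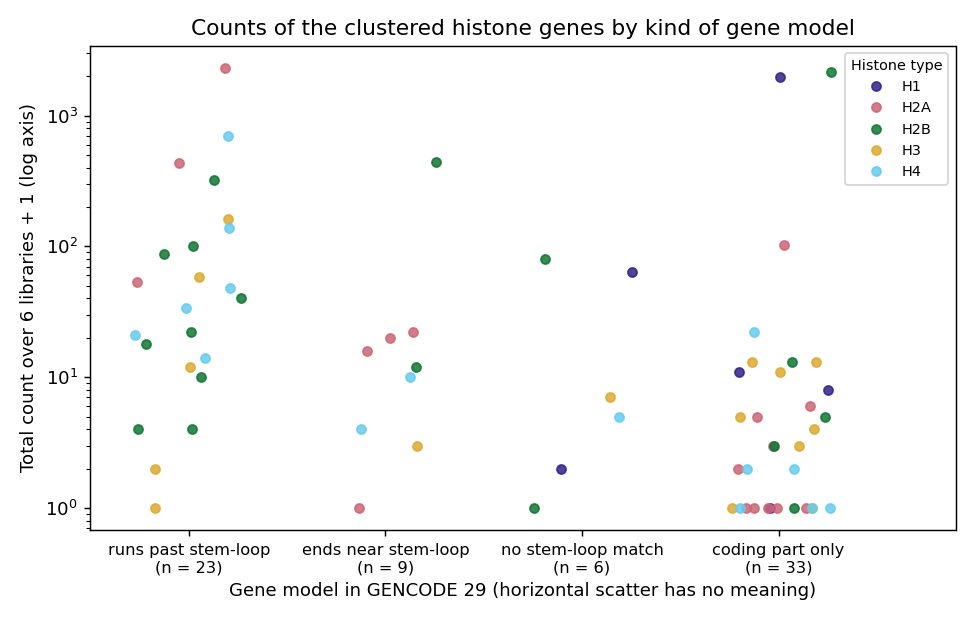
Total count over 6 libraries plus 1 (vertical, log axis) of each of the 71 clustered histone genes, placed by the kind of its GENCODE 29 gene model and coloured by histone type, 1 point a gene. The 3 highest points, HIST1H2AC, HIST1H2BK and HIST1H1C, stand at 2311, 2151 and 1971 counts before adding 1, and 12 of the 15 genes at 0 counts are annotated by their coding part alone.

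The clustered histone genes made up a very small part of the RNA counted, between 0.00821% and 0.0104% of the counts in any library. At least 1 count was found for 56 members, and 27 had a count in every library. The other 15 (21.1%) were listed at 0 throughout, as were 17.3% of all protein-coding genes. At this depth a 0 allows a level of up to 0.16 to 0.189 CPM of total counts in a library (3 counts, counting error only). The filter on low counts passed 14 members (19.7%), against 63.4% of all protein-coding genes. Those 14 held 94.5% of all member counts. They comprise 2 of 6 H1 genes, 3 of 17 H2A, 6 of 18 H2B, 1 of 15 H3 and 2 of 15 H4.

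Across the groups, HIST1H2AC fell and no other member was called. The log2 fold change of HIST1H2AC, -0.78, lay inside the confidence intervals of HIST1H2BD (-0.86 to 0.02) and HIST3H2A (-0.89 to 0.02). It also lay inside those of HIST2H2BE (-0.92 to 0.17), HIST1H3E (-1.09 to 0.31), HIST1H4H (-1.11 to 0.29), HIST1H2BN, HIST1H2BC, HIST1H2BJ and HIST1H1E. It lay outside those of HIST1H2BK, HIST1H1C, HIST1H4I and HIST2H2AC. Where an interval held that value, a smaller fall than that of HIST1H2AC was not shown. Of the 14 tested members 1 was called lower, where 0.166% of all 14458 tested genes were, and 0 were called higher, where 0.0968% were (edgeR's quasi-likelihood test, adjusted p under 0.05 over all genes). No member had an unadjusted p under 0.05 in edgeR besides HIST1H2AC. DESeq2 called 1 member lower and 0 higher, and 116 of the 9693 genes to which it gave an adjusted p (1.2%). No DESeq2 adjusted p was available for HIST1H2BD, HIST3H2A, HIST2H2BE, HIST1H3E and HIST1H4H. The fold change was below 0 for 10 of 14 tested members, against 52.6% of all tested genes. The median log2 fold change was -0.24 over the 14 and -0.16 without HIST1H2AC, beside -0.02 over all genes tested. Over the alternatives that median ran from -0.39, with a mean of at least 1 CPM required, to -0.04, with log2(FPKM + 1) and no filter. Those 2 fits covered 9 and 56 members, so the medians are not of the same genes. Adding 1 also draws changes at low FPKM towards 0. For 2 of the 14, HIST1H2AC and HIST1H4H, all Vector values lay on 1 side of all OE_GPX3 values, which held for 18.5% of all tested genes.

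**Figure D2:**
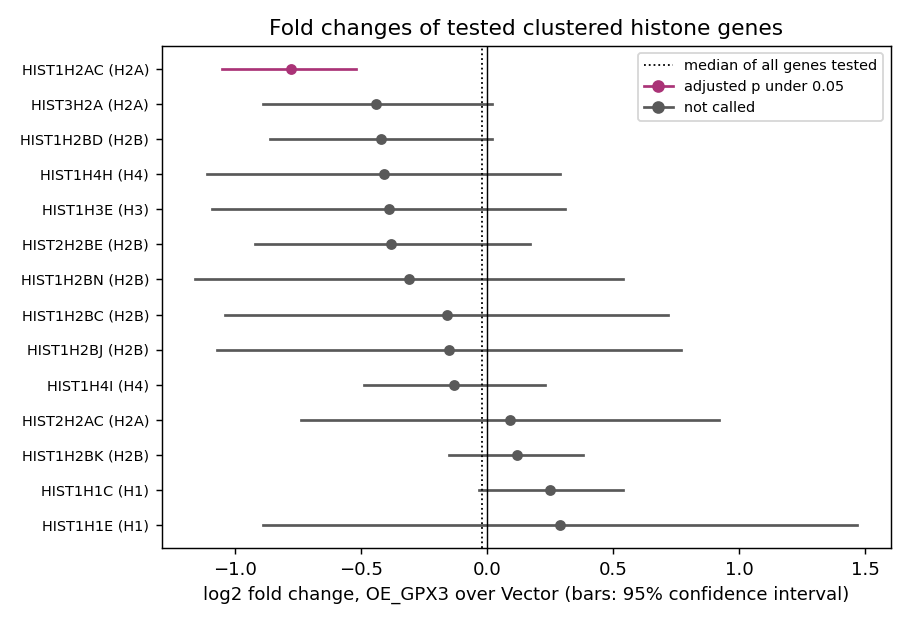
Log2 fold change of OE_GPX3 over Vector (horizontal) with its 95% confidence interval for the 14 tested clustered histone genes, ordered by value, with the median of all genes tested as a dotted line. The interval of HIST1H2AC runs from -1.05 to -0.52, and those of the other 13 genes include 0.

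HIST1H2AC encodes an H2A protein and is the most counted member (ENSG00000180573, chr6:26124145-26139116, plus strand, hg38, with 3 annotated transcripts of at most 2 exons). The 3 Vector libraries held 484, 576 and 438 of its reads, and the 3 OE_GPX3 libraries 297, 253 and 263. Scaled for depth, Vector had 27.3, 29.6 and 26.8 CPM against 16.7, 14.9 and 17.1 CPM in OE_GPX3. Every OE_GPX3 library lay below every Vector library. The Vector mean was 27.9 ± 1.51 CPM and the OE_GPX3 mean, 1.72-fold lower, was 16.2 ± 1.13 CPM (SD, n = 3 each). The log2 fold change was -0.78 with an SE of 0.13 (95% confidence interval -1.05 to -0.52, edgeR adjusted p = 0.00225). In bulk RNA, fewer cells with a transcript and less of it per cell cannot be told apart.

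The call on HIST1H2AC was lost without Vector replicate 2 (log2 fold change -0.74, edgeR adjusted p = 0.0746), without OE_GPX3 replicate 2 (-0.72, edgeR adjusted p = 0.0761), after a correction for GC content (-0.64, edgeR adjusted p = 0.0676) and with log2(FPKM + 1) and no filter (-0.71, limma adjusted p = 0.258). Its value lay between -0.84 and -0.64 in all 17 alternatives, with adjusted p values from 1.84e-05 to 0.258.

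The other 16 H2A genes had fewer counts. HIST3H2A (chr1:228456979-228457873, minus strand) had Vector values of 3.95, 5.09 and 5.38 CPM and OE_GPX3 values of 2.52, 3.9 and 4.28 CPM. Its groups overlapped, and with a log2 fold change of -0.44 (SE 0.23) it was not called (edgeR adjusted p = 0.365). HIST2H2AC (chr1:149886975-149887364, plus strand), another H2A gene, had 51 counts in each group and a log2 fold change of 0.09 (interval -0.74 to 0.92, edgeR adjusted p = 0.935). The remaining 14 H2A genes were not tested, and 6 of them were listed at 0. All 17 H2A genes summed to 34.9 ± 1.74 CPM per Vector library and 21.8 ± 1.67 CPM per OE_GPX3 library (SD, n = 3 each), and HIST1H2AC was the larger part of both sums.

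H2B was the type with the most tested members, and none of the 6 was called. HIST1H2BK (chr6:27146418-27146798, minus strand) led them with 19.2, 21 and 19.5 CPM in Vector and 22.8, 21.4 and 20.4 in OE_GPX3. These groups overlapped, and its log2 fold change was 0.12 (interval -0.15 to 0.38, edgeR adjusted p = 0.7). After the GC correction it was -0.02. Of its 50-base windows 74.1% also occur in other genes, most often in H2BFS, so its count depends on how shared reads were assigned. HIST1H2BD (chr6:26158146-26171349, plus strand) had Vector values of 4.01, 5.61 and 4.95 CPM and OE_GPX3 values of 3.48, 4.37 and 3.05 CPM. The groups overlapped (log2 fold change -0.42, SE 0.22, edgeR adjusted p = 0.37), and an antisense gene with 6 counts overlaps this gene. HIST2H2BE (chr1:149884459-149886652, minus strand) was at 2.99, 4.53 and 2.93 CPM in Vector and 1.57, 3.07 and 3.5 in OE_GPX3, also overlapping (log2 fold change -0.38, SE 0.27, edgeR adjusted p = 0.521). HIST1H2BN, HIST1H2BC and HIST1H2BJ had 100, 87 and 79 counts in all, and log2 fold changes of -0.31, -0.16 and -0.15. Their intervals ran from -1.16 to 0.54, -1.04 to 0.72 and -1.07 to 0.77, each of which includes both 0 and the value of HIST1H2AC. Summed H2B came to 32.5 ± 2.51 CPM per Vector library and 31 ± 1.2 CPM per OE_GPX3 library (SD, n = 3 each), with overlap.

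Among linker histones, HIST1H1C (chr6:26055787-26056428, minus strand) held 1971 of 2052 counts. Vector had 19, 14.9 and 18.5 CPM against 18.8, 23.7 and 19.9 CPM in OE_GPX3. The lowest OE_GPX3 library lay below the highest Vector library, and the log2 fold change of 0.25 (interval -0.03 to 0.54) was not called (edgeR adjusted p = 0.405). HIST1H1E, also a linker histone gene, had 1, 8 and 20 counts in Vector and 15, 12 and 7 in OE_GPX3, a log2 fold change of 0.29 (interval -0.89 to 1.47).

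The H3 and H4 genes were the least counted types, with 282 and 983 counts in all. HIST1H3E (chr6:26224199-26227473, plus strand), the only tested H3 gene, was at 1.64, 1.75 and 1.9 CPM in Vector and 2.08, 1.12 and 0.778 in OE_GPX3, so that the OE_GPX3 libraries lay on both sides of the Vector libraries (log2 fold change -0.39, SE 0.34, edgeR adjusted p = 0.61). HIST1H4I (chr6:27138588-27139881, plus strand) was at 6.26, 7.3 and 7.34 CPM in Vector and 6.67, 6.55 and 5.84 in OE_GPX3. The groups overlapped and its log2 fold change was -0.13 (SE 0.18, edgeR adjusted p = 0.756). HIST1H4H (chr6:26277609-26285638, minus strand) was at 1.52, 1.49 and 1.53 CPM in Vector and 0.897, 1.24 and 1.3 in OE_GPX3. These groups did not overlap, but they rest on 81 and 57 counts, and the log2 fold change of -0.41 (SE 0.34) was not called (edgeR adjusted p = 0.591). Summed over type, H4 ran from 9.9 to 10.3 CPM in Vector and from 8.3 to 9.2 in OE_GPX3.

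**Figure D3:**
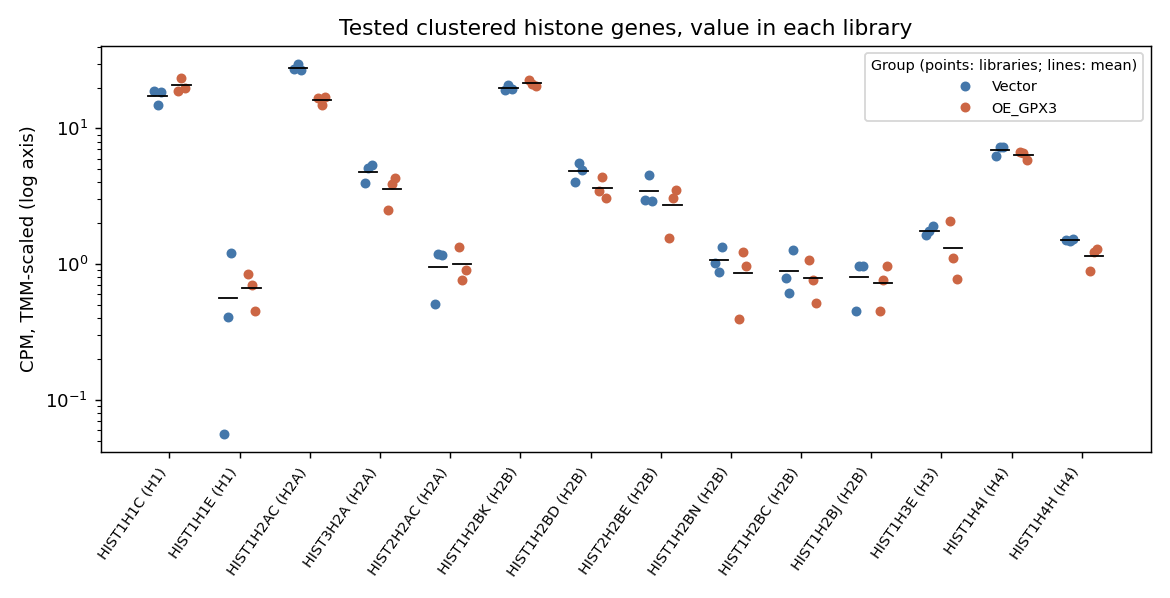
CPM scaled by TMM (vertical, log axis) of the 14 tested clustered histone genes in each library, ordered by histone type, with a line at each group's mean. The 3 OE_GPX3 values of HIST1H2AC lie between 14.9 and 17.1, below all 3 Vector values, while the groups overlap for HIST1H1C and HIST1H2BK, which stand at a similar height.

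Per gene length the order of the leading members differed. In the deposited FPKM (fragments relative to gene length and library size), HIST1H2BK was highest at 49.5, 54.4 and 50.9 in Vector and 59.4, 56.2 and 53.9 in OE_GPX3. HIST1H1C followed at 29.1, 23 and 28.6 FPKM in Vector and 29, 36.9 and 31.1 in OE_GPX3. HIST1H2AC came after these in every library, at 16.1, 17.6 and 16 FPKM in Vector and 9.91, 8.97 and 10.3 in OE_GPX3. The values of these 3 genes did not overlap with each other in either group. Next came HIST1H4I with 4.53 to 5.64 FPKM over the 6 libraries, HIST1H2BD with 3.52 to 6.36 and HIST3H2A with 2.8 to 5.98, which overlapped.

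All members together summed to 98.7 ± 2.91 CPM per Vector library and 85.7 ± 2.44 CPM per OE_GPX3 library (SD, n = 3 each), with 95.4 as the lowest Vector value and 88.5 as the highest OE_GPX3 value. Without HIST1H2AC the sums were 70.8 ± 2.63 and 69.5 ± 3.56 CPM (SD, n = 3 each), and the groups overlapped. Of all member counts HIST1H2AC made up 28.6%, 29.4% and 26.8% in Vector, against 19.7%, 16.9% and 20.2% in OE_GPX3. The lowest Vector share had a 95% Wilson interval of 24.7% to 29% and the highest OE_GPX3 share one of 18.2% to 22.5%, covering counting error only.

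**Figure D4:**
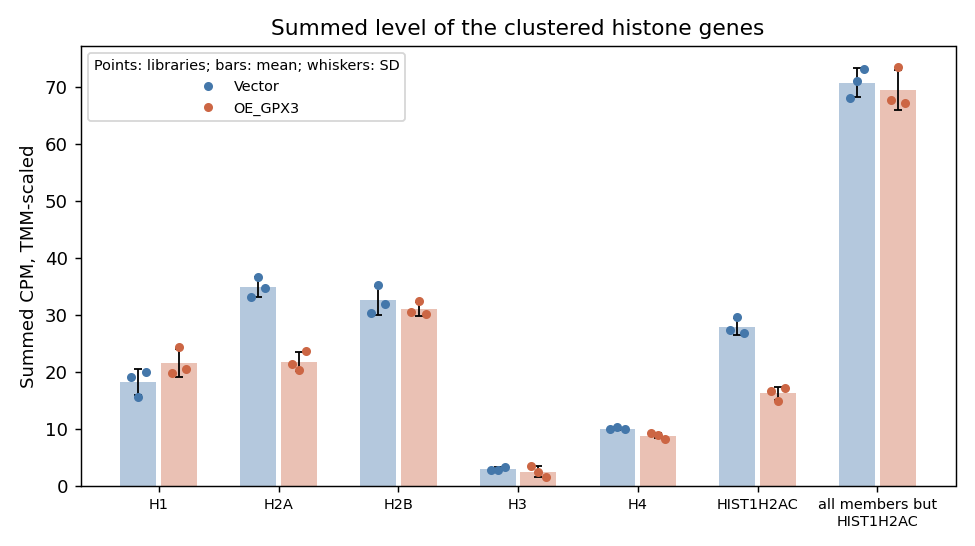
Summed CPM (vertical) by histone type, for HIST1H2AC alone and for all other members, with bars at the mean of 3 libraries, whiskers for the SD and points for the libraries. The H2A bars stand at 34.9 and 21.8 CPM, those of HIST1H2AC alone at 27.9 and 16.2, and the bars of all other members stand at 70.8 and 69.5 CPM.

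Ratios of 2 genes within a library do not depend on the scaling between libraries. An effect of GC content would not cancel between genes that differ in it. HIST1H2AC had 42%, HIST1H2BK 61.2%, HIST1H1C 57.5% and HIST1H4I 46.8%. The values of HIST1H2BK and HIST1H1C are those of their coding parts alone. After the GC correction their log2 fold changes were -0.64, -0.02, 0.15 and -0.07. The part of GC content in the ratios was not tested. HIST1H2AC had 1.42, 1.41 and 1.37 times the count of HIST1H2BK in Vector, against 0.73, 0.699 and 0.835 times in OE_GPX3, a difference of -0.90 in log2 ratio. Against HIST1H1C the ratios of 1.44, 1.99 and 1.45 in Vector stood against 0.887, 0.631 and 0.859 in OE_GPX3, a difference of -1.04. Against HIST1H4I the Vector ratios of 4.36, 4.06 and 3.65 stood against 2.5, 2.28 and 2.92 in OE_GPX3, a difference of -0.65. In these 3 ratios the groups did not overlap, and each gave p = 0.1 in an exact two-sided permutation test, the smallest that 3 against 3 libraries allow (0.133 after Benjamini-Hochberg adjustment over the 4 ratios computed). The fall of HIST1H2AC was already known, and these partners were chosen after the values had been seen. The ratios and their p-values are therefore a description and no separate support for the fall.

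**Figure D5:**
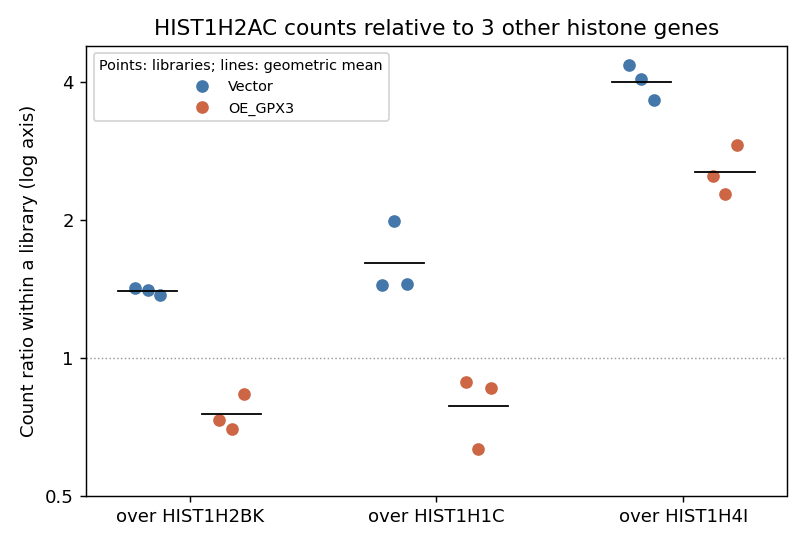
Count of HIST1H2AC divided by that of HIST1H2BK, HIST1H1C or HIST1H4I in the same library (vertical, log axis), with points for libraries and lines at the geometric mean of a group. The Vector ratios over HIST1H2BK lie between 1.37 and 1.42 and the OE_GPX3 ratios between 0.699 and 0.835.

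H2A and H2B genes often lie head to head and share the DNA between their start sites. Start sites lay within 500 bases of each other in 11 such pairs. In 6 of them neither gene had over 20 counts. HIST1H2AC is paired with HIST1H2BC, 219 bases away, and the 2 genes had 2311 and 87 counts. The fourth ratio computed was that of this pair: 34.6, 48 and 20.9 in Vector and 15.6, 19.5 and 32.9 in OE_GPX3, with overlapping groups (exact two-sided permutation p = 0.2, 0.2 adjusted). HIST1H2BK and its partner HIST1H2AH had 2151 and 4 counts, HIST3H2A and HIST3H2BB 434 and 17, HIST2H2BE and HIST2H2AC 323 and 102, and HIST1H2BJ and HIST1H2AG 79 and 52. Model lengths differ within pairs, as between HIST1H2AC (1668 bases) and HIST1H2BC (834 bases), so these counts are not levels per length.

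The promoters of HIST1H2AC and HIST1H2BK are shown as those of the member that fell and of the H2B gene with a similar CPM that was not called. Each runs from 250 bases before to 50 after the start site in RefSeq (GRCh38.p14): chr6:26123922-26124221, plus strand, for HIST1H2AC (H2AC6 in RefSeq) and chr6:27146809-27147108, minus strand, for HIST1H2BK (H2BC12 in RefSeq). Of the HIST1H2AC window 255 bases also belong to the window of HIST1H2BC, read on the other strand. Capitals mark the CCAAT box, the TATA box as TATAAA and the octamer ATGCAAAT, each on either strand.
HIST1H2AC: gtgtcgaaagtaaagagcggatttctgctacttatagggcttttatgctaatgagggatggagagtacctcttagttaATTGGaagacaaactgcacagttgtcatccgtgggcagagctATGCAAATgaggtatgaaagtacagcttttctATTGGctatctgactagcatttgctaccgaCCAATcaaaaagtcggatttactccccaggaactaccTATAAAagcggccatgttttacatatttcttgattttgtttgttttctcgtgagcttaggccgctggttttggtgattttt
HIST1H2BK: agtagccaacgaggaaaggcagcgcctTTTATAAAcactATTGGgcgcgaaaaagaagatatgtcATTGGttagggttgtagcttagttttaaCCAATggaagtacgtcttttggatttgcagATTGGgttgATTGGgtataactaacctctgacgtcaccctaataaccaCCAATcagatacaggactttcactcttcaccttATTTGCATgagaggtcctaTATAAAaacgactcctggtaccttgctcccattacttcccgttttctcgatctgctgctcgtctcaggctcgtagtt
The HIST1H2AC window has TATAAA starting 31 bases before the start site, the octamer at 130 bases and CCAAT boxes at 68, 98 and 172 bases. The HIST1H2BK window has TATAAA at 27 and 221 bases, the same box on the opposite strand at 223 bases and the octamer, on the opposite strand, at 46 bases. Its CCAAT boxes, on either strand, stand at 79, 118, 127, 157, 185 and 211 bases. Promoters of 61 members were matched. CCAAT stood in 51 of them (83.6%), against 35.7% of 27305 promoters, and in all matched H1, H2A, H2B and H3 promoters but 3 of 13 H4 promoters. TATAAA stood in 40 (65.6%, against 12% of all promoters). The octamer stood in 11 of 14 H2A and 14 of 18 H2B promoters, 1 of 10 H3 and no H1 or H4 promoter, against 1.8% of all promoters. The octamer is the site known for POU2F1 at H2B genes; a match here is a run of letters only, and windows of paired genes hold the same match. The H3 promoter with the octamer, listed for HIST1H3D, is the same window as that of HIST1H2AD, so that 1 match is counted under both types.

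GC content of the transcripts moved with the direction of the tested members; its part in the result was not tested beyond the correction given here. The 4 members above 0 (HIST1H2BK, HIST1H1C, HIST2H2AC and HIST1H1E) had a GC content of 57.5% to 62.8% in their longest annotated transcript. The 10 below 0 had 39.5% to 57.7%, with HIST1H2AC at 42%. HIST1H2BK, HIST1H1C and HIST2H2AC are the 3 tested members annotated by their coding part alone, so their values leave out end regions. HIST1H1E has no hairpin match, and the 9 tested members with a match were all below 0. GC content and kind of gene model thus went largely together, and neither was tested apart from the other. After removal of a GC trend from every library, 12 of the 14 were below 0, HIST1H2AC was lowest at -0.64, and HIST3H2A, with a GC content of 57.7%, was next at -0.54. The 14 values then ran up to 0.19, and none was called.

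The 57 members that were not tested had 309 counts in Vector and 221 in OE_GPX3. Of the 42 with any count, 25 had more in Vector, 11 more in OE_GPX3 and 6 the same. These counts were not scaled for depth, and the median total of the 42 was 9. The same split over other genes with few counts was not computed. The most counted of the 42 was HIST1H3H, an H3 gene, with 30 and 27 counts. HIST1H2BE, an H2B gene, and HIST1H4K, an H4 gene whose windows all occur in HIST1H4J, each had 17 counts in Vector and 4 in OE_GPX3. Near-identical copies limit some of these: 97.2% of the 50-base windows of HIST2H4B and 97.5% of those of HIST2H4A occur in another gene, as do all windows of HIST2H2AA3, and 16 of the 71 members share more than 50% of their windows.

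In edgeR's fit with all 6 libraries and no replicate block, none of the genes listed as controlling or handling histones was called. An unadjusted p under 0.05, counted below for each list, was reached by 14.6% of all genes tested in that fit. Without OE_GPX3 replicate 1, where single calls are named below, edgeR called 657 of all 14707 genes tested (4.47%). DESeq2 with all 6 libraries called 116 of the 9693 genes to which it gave an adjusted p (1.2%). Of 15 genes of histone gene transcription and the histone locus body, the nuclear site where histone genes are transcribed, 0 were called by edgeR or DESeq2, 4 had an unadjusted p under 0.05 in edgeR, and the median was -0.01. NPAT, the coactivator of histone genes at that site, had a log2 fold change of -0.62 (edgeR adjusted p = 0.277; it overlaps ATM). CCNE1, the cyclin that drives NPAT phosphorylation with CDK2, had 0.42 (edgeR adjusted p = 0.13). E2F1 and E2F3, transcription factors of the G1 to S transition, had 0.35 and -0.37. Without OE_GPX3 replicate 1, edgeR called E2F1 higher (0.51).

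Of 31 genes of histone mRNA 3' end processing and turnover, edgeR called 0 without a replicate block, 7 had an unadjusted p under 0.05, and the median was 0.04. SRRT, a factor of the nuclear cap-binding complex, had a log2 fold change of 0.36 (edgeR adjusted p = 0.125). It was the 1 gene of the list called by DESeq2, at 0.37, where 1.2% of all genes were called. It was also the 1 called by edgeR without OE_GPX3 replicate 1, at 0.41, where 4.47% were. UPF1, the helicase that acts in histone mRNA decay, had 0.31, the polyadenylation factor FIP1L1 -0.45 and the uridylyltransferase TUT4 -0.41 (TUT4 overlaps PRPF38A). SLBP, named beside the rule because it binds the hairpin, had a Vector mean of 36.7 ± 5.55 CPM and an OE_GPX3 mean of 42.9 ± 5.11 CPM with overlap (SD, n = 3 each; log2 fold change 0.23, interval -0.03 to 0.48, edgeR adjusted p = 0.395).

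Of 19 histone genes outside the clusters, listed here as replication-independent, 11 could be tested. Whether each of them is expressed apart from replication was not tested. Of these 0 were called by edgeR without a replicate block or by DESeq2, 2 had an unadjusted p under 0.05 in edgeR, and the median was 0.01. The linker histone gene H1F0 went from 223 ± 16.7 to 183 ± 18.2 CPM (SD, n = 3 each; log2 fold change -0.28, edgeR adjusted p = 0.217) without overlap, and H1FX, another linker histone gene, from 122 ± 21.4 to 150 ± 24.1 (SD, n = 3 each; 0.29, edgeR adjusted p = 0.277) with overlap. The H2A variant genes H2AFX and H2AFY2 had 0.21 and 0.23 (H2AFY2 overlaps AIFM2). Without OE_GPX3 replicate 1, edgeR called H1FX (0.40) and H2AFX (0.36) higher. Of 30 histone chaperone genes 0 were called by edgeR or DESeq2, 3 had an unadjusted p under 0.05 in edgeR, and the median was -0.05. ANP32E, a chaperone of the variant H2A.Z, had -0.34, RBBP4 -0.25 (it overlaps SYNC), ASF1B 0.26 and TONSL 0.23. Without OE_GPX3 replicate 1, edgeR called ASF1B higher (0.40) and NAP1L1 lower (-0.32). Of 28 S phase genes 0 were called by edgeR or DESeq2, 3 had an unadjusted p under 0.05 in edgeR, and the median was 0.11, with 19 above 0. MCM7 and MCM2, subunits of the replicative helicase, had 0.30 and 0.27, GINS1 0.27 and the thymidine kinase gene TK1 0.31. MCM7 overlaps AP4M1, and MCM2 overlaps TPRA1. Without OE_GPX3 replicate 1, edgeR called MCM2 (0.43), MCM7 (0.43), CDT1 (0.38) and TK1 (0.50) higher, while HIST1H2AC fell there too (-0.80) and no other clustered histone gene was called.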

How the data were processed

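The authors deposited whole-number counts per gene and FPKM values, per the file headers, for 3 Vector and 3 OE_GPX3 libraries of A549 RNA extracted with TRIzol. The submitters' processing notes name hg38; aligner, counter and use of strand were not given in the sources used here. All 58735 rows match GENCODE release 29 in position. The deposited FPKM equal counts per gene length and 1 constant per library.

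Counts passing edgeR's filterByExpr (minimum 10, total 15; 14458 genes) were scaled by TMM and tested with edgeR 4.0.16 (robust quasi-likelihood, two-sided, Benjamini-Hochberg over all genes, R 4.3.3). Alternatives used DESeq2 1.42.0, limma 3.58.1 on log2(FPKM + 1), other scalings and filters, single libraries left out, and a GC trend removed by lowess (span 0.3, added after seeing the data). Simulated counts on 14263 genes gave back 73.1%, 97% and 100% of genes changed 1.5-fold, 2-fold and 4-fold, with 5.76% of calls false. The changed genes were drawn only from better counted genes. HIST1H2BD, with a mean of 4.24 CPM, and all less counted members lie below that limit, so recovery at their levels was not simulated.

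Every member with a mean of at least 1 CPM or called in any fit was named, and up to 4 genes with the smallest p of each other list; SLBP and further members were named after their values were seen. Members and lists were chosen with earlier results of these data known. Total counts were 15831693 to 18751815 per library. No column of other samples was present. The leukocyte marker list is not reported here.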

Additional observations from a re-analysis of the deposited data

How the results depend on the processing

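HIST1H2AC stayed lower in all 17 alternatives and passed the threshold in 13. It did not pass, and 0 members were called lower, without Vector replicate 2, without OE_GPX3 replicate 2, with log2(FPKM + 1) and no filter (log2 fold change -0.71, limma adjusted p = 0.258) and after the GC correction (-0.64); with 1 library left out its value ranged from -0.81 to -0.72 and the number of members called lower from 0 to 1. The cause was not tested. No member was called higher in any alternative. The median of tested members was -0.39 with a mean of at least 1 CPM (9 members tested) and -0.04 with log2(FPKM + 1) and no filter (56 members), and -0.35 to -0.09 with 1 library left out. HIST1H2BK and HIST2H2AC changed sign after the GC correction (-0.02 and -0.06).

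Against 38 genes called in all (24 lower, 14 higher), DESeq2 called 116 (48 lower, 68 higher), upper-quartile scaling 52 (38 lower, 14 higher), total counts alone 68 (55 lower, 13 higher), no filter 129, the FPKM fits 4, 4 and 1, the GC correction 4, and fits with 1 library left out 1 to 657 (657 without OE_GPX3 replicate 1). The median over all genes moved by at most 0.06 between scalings. With the replicate block 231 genes were called (90 lower, 141 higher), HIST1H2AC kept its value (-0.78, edgeR adjusted p = 0.00538), and 2 genes of 3' end processing (SRRT 0.36 and UPF1 0.31) and 1 replication-independent histone gene (H1FX 0.29) were called, beside 1.6% of all genes tested. Same-numbered libraries correlated in their deviations at 0.25, 0.02 and 0.15 for replicates 1, 2 and 3. The libraries of replicates 1 and 3 correlated best with their own number, and those of replicate 2 did not. A pairing by number was thus neither shown nor excluded. DESeq2 called 1 gene of 3' end processing, beside 1.2% of all genes to which it gave an adjusted p. With 1 library left out, 0 to 1 genes of histone gene transcription and 0 to 1 of 3' end processing were called. So were 0 to 2 histone genes listed as replication-independent, 0 to 2 chaperones and 0 to 4 S phase genes. The highest of each came without OE_GPX3 replicate 1. Depth limits what can be said of the 57 untested members, none of which had over 57 counts in all.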

Other observations

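The table also lists 19 histone rows of the same symbol pattern that are annotated as pseudogenes. Of these 17 were at 0 in every library. HIST2H2BC had 22, 32 and 20 counts in Vector and 20, 16 and 9 in OE_GPX3 and HIST2H2BD had 8, 8 and 8 in Vector and 6, 4 and 3 in OE_GPX3.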
